A study of Arabidopsis thaliana with 12 samples.

Results

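The leaf transcriptome described here is that of wild type Arabidopsis thaliana, ecotype Columbia, at 18 days of leaf age. It was measured in 3 of the 12 libraries of a series that also holds 3 insertion lines in genes of NAC transcription factors, which are not compared here. Members were chosen by label, as the wild type libraries, and by row, as the 33197 of 33726 table entries that carry a gene identifier. Per the labels' protocols, the plants were grown at 22 °C with 16 hours of light and 8 hours of dark at a photon flux density of 100 µmol per square metre and second. Poly(A) RNA of leaves, with an RNA integrity number of at least 7.8, was made into strand-specific libraries. The labels do not say whether the 3 libraries came from separate plants, which leaf was taken, how many were pooled, or at what hour they were collected, so the spread given below may be technical.

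A mature leaf of Arabidopsis is built mainly of mesophyll cells, whose chloroplasts capture light and fix carbon. In the thylakoid membrane, antenna proteins loaded with chlorophyll pass light energy to photosystems I and II, which drive electrons from water to NADPH and power the synthesis of ATP. In the stroma, Rubisco joins carbon dioxide to a sugar phosphate, and the Calvin-Benson cycle makes triose phosphates and rebuilds the acceptor. When Rubisco takes oxygen instead, photorespiration salvages the product through chloroplast, peroxisome and mitochondrion. Most of the proteins involved are encoded in the nucleus, while a smaller set, with the large subunit of Rubisco, is encoded in the plastid.

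Levels are given as log2(abundance + 1) as deposited, in the order of libraries 1, 2 and 3, and SD is the standard deviation over these libraries. Among abundances above 0 and below 1, the 5th percentile was lower in longer genes, by 4.25 to 7.96 times between genes of 300 to 600 exon bases and genes over 3000, so levels were read as per length and compared between genes on that footing. The values had been quantile normalized: at one rank the 3 libraries differed by at most 0.0543 log2 units, and their back-transformed sums were 620791, 620798 and 620805. The spread of the highest genes therefore records little more than exchanges of rank. In bulk leaf RNA, fewer cells of a type and less RNA per cell cannot be told apart. The sequencing depth is unknown.

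About as many genes reached a mean abundance of 1 as stayed below it. A mean abundance of at least 1, which is a log2 value of at least 1, was reached by 16646 genes (50.1%), and 16174 of these are protein coding. At the other end, 11410 genes (34.4%) were listed at 0 in all 3 libraries, and 2224 were listed at 0 in 1 or 2 of them. A mean abundance of at least 100 was reached by 1106 genes and one of at least 1000 by 44. The sum was concentrated: the 25 highest genes held 9.18% ± 0.0138 (SD, n = 3) of the summed abundance, the 100 highest 20.1% ± 0.0287, and 1052 genes made up 50%. Quantile normalization holds these SDs small, so they do not measure how well the libraries agree. The lists of the 25 highest genes in each library shared 23 genes, and those of the 100 highest shared 89.

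Photosynthesis filled the top of the ranking. Of the 25 highest genes, 23 belong to the 81 nuclear genes of antenna, photosystems, electron transport, ATP synthase, Rubisco small subunit and Calvin-Benson cycle. The exceptions are RCA, Rubisco activase, which frees the active site of Rubisco from inhibitory sugar phosphates, and CAT3, a catalase. The 81 genes held 14.7% ± 0.134 (SD, n = 3) of the summed abundance, and 54 of them were among the 100 highest genes. The antenna alone held 6.44% ± 0.0485, photosystem I 2.70% ± 0.0297, photosystem II 2.39% ± 0.0343 and the Calvin-Benson cycle 1.3% ± 0.0428.

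**Figure D1:**
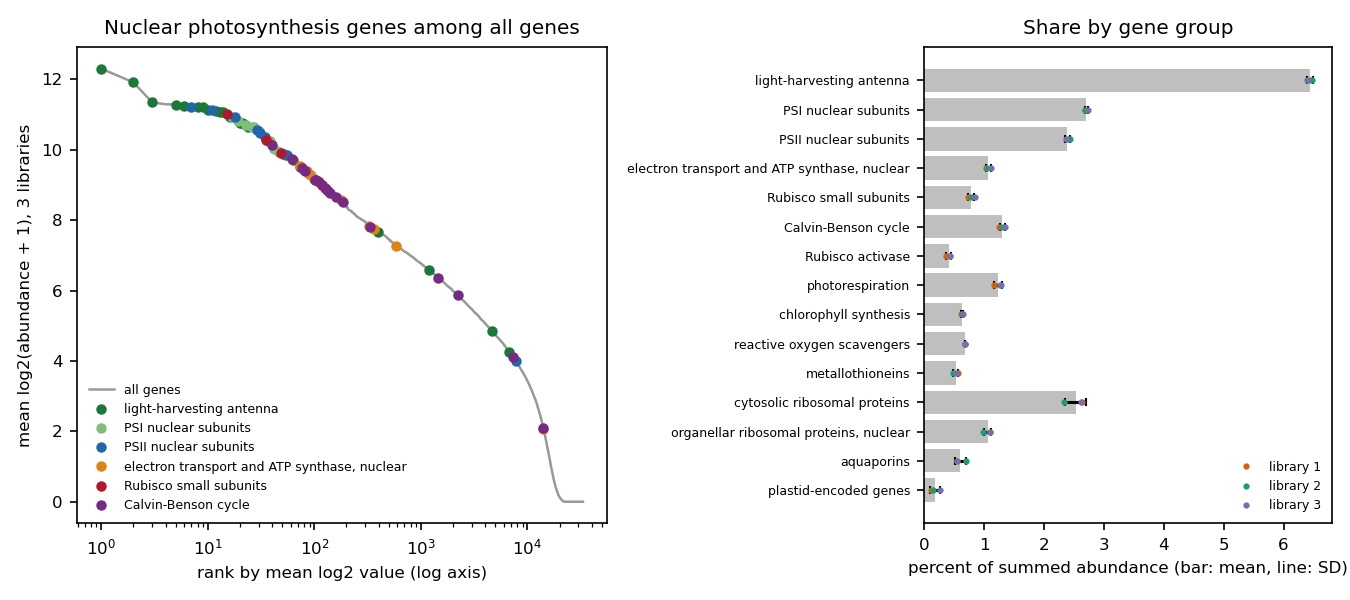
Left, mean log2 level of each gene against its rank (log axis), with the nuclear photosynthesis genes in colour. Right, percent of the summed abundance held by each gene group, as the mean of 3 libraries with the SD as a line and each library as a point; the antenna held 6.44% and plastid-encoded genes 0.169%.

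The antenna was led by LHCB1.3, a major protein of the light-harvesting complex of photosystem II, at 12.31 in each library. It ranked first of all genes and held 0.816% of the summed abundance. The second gene was LHCB1.5, listed in the table as LHB1B2, at 11.92 in each library. The family of LHCB1 genes lies in 2 clusters on the TAIR10 coordinates of the table. LHCB1.3 (chr1:10478005-10479048) neighbours AT1G29920 (chr1:10474784-10475959) and AT1G29910 (chr1:10472280-10473299), which the table both names LHCB1.2. The former stood at 11.07, 11.18 and 11.18 and the latter at 11.15, 11.04 and 11.04. LHCB1.5 (chr2:14522524-14523568) neighbours LHCB1.4 (chr2:14524756-14525763), listed as LHB1B1, at 11.38, 11.23 and 11.01. The coding sequences of the cluster on chromosome 1 are 95.7% to 96.4% identical to each other, so how reads were split between these copies is uncertain.

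Within the antenna, LHCA1 to LHCA4, which bind photosystem I, had mean levels of 11.08, 10.93, 11.25 and 11.35. LHCB3, LHCB5 and LHCB6, of which LHCB5 and LHCB6 are minor antenna proteins placed singly next to photosystem II, stood at 11.29, 11.21 and 10.77. LHCB2.1 and LHCB2.2, partners of LHCB1 in the main complex, stood at 11.10 and 10.77. All 21 antenna genes passed the level of 1, and 16 were among the 25 highest. The low members were LHCB7 at 4.25, LHCB4.3 at 4.84 and LHCA6, which takes part in linking photosystem I to the NADH dehydrogenase-like complex, at 6.59. LHCB4.3 stood at 4.45, 4.97 and 5.10, while its relatives LHCB4.1 and LHCB4.2 stood at 10.64 and 10.74 on average.

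The 13 nuclear genes listed for photosystem I ranged from 9.30 to 10.93 in mean level, and every one was among the 100 highest genes. One is PSAP, which the table names CURT1B and describes as a thylakoid curvature protein, at 10.02 on average. It is counted in the shares above, with 0.1675% of the summed abundance. PSAF, the docking site of plastocyanin, led the 13 at 10.95, 10.90 and 10.95. Among the 12 genes of photosystem II, PSBO1, the manganese-stabilizing protein of the oxygen-evolving complex, stood at 11.21, 11.26 and 11.21. PSBP1 and PSBR followed at 10.93 and 11.12 on average. PSBS, which senses lumen acidity in the dissipation of excess light, stood at 9.20, 9.42 and 9.55. PSAO and PSAG, smaller subunits of photosystem I, stood at 10.82 and 10.71. Paralogs were unequal: PSBP2 stood at 3.99, against 10.93 for PSBP1, and ATPC2, a second gene for the gamma subunit of the chloroplast ATP synthase, at 2.08, against 9.39 for ATPC1. The major plastocyanin, DRT112, stood at 10.26 and the minor form PETE1 at 7.84.

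The small subunit of Rubisco comes from 4 genes, and RBCS1A was the highest of them. RBCS1A (chr1:25048158-25049424) stood at 11.01, 10.95 and 11.12. The others form a cluster on chromosome 5. RBCS3B stood at 10.14, 10.34 and 10.40, RBCS2B at 9.69, 10.01 and 10.06, and RBCS1B at 8.94, 8.90 and 9.16. The levels of the 4 genes did not overlap with each other. All 4 were highest in library 3, where over all genes 5392 of 16646 were. RCA was at 11.12, 11.38 and 11.38. The last 120 coding bases of RBCS1A and the stretches of the other genes that match them best are printed because reads can be assigned to one copy only where copies differ. They are from the RefSeq assembly TAIR10.1, and capitals mark bases that differ from RBCS1A at the same place.
RBCS1A: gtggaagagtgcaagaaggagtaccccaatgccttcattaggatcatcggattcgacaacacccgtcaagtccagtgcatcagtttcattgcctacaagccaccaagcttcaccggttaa
RBCS1B: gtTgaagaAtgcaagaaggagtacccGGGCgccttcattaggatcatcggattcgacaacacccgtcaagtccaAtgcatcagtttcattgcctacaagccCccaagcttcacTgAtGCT
RBCS2B: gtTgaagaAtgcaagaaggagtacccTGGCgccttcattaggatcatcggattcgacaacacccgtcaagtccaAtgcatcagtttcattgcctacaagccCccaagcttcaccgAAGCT
RBCS3B: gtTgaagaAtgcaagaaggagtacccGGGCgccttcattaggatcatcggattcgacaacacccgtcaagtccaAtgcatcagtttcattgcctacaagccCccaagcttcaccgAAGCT
Each of the 3 genes on chromosome 5 differs from RBCS1A at 13 of the 120 bases. Over whole coding sequences, RBCS1A is 88.1% to 90.5% identical to the others, and RBCS1B and RBCS2B are 97.3% identical to each other, so the division between these neighbours is less certain than that between RBCS1A and the cluster.

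Of the 18 genes of the Calvin-Benson cycle, all passed the level of 1 and 14 were among the 1000 highest. FBA2, a plastid aldolase, led at 10.09, 10.22 and 10.09, followed by PRK, phosphoribulokinase, at 9.73 on average. The regulatory protein CP12 comes from 3 genes, which stood at 9.49 (CP12-1), 8.84 (CP12-2) and 4.12 (CP12-3). TKL2, a second transketolase, stood at 2.11, against 8.89 for TKL1. The nuclear photosynthesis genes had a median SD between libraries of 0.0654. Their spread is limited by their place at the top of quantile normalized values: over all genes the median SD was 0.116 at levels from 8 to 10 and 0.0542 at levels of 10 or more.

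Photorespiration and chlorophyll synthesis were at lower but still high levels. Photorespiration held 1.23% ± 0.0663 of the sum, led by GGAT1 (9.72, 9.84 and 9.79) and AGT1 (9.80, 9.79 and 9.75), peroxisomal aminotransferases, SHM1, the mitochondrial serine hydroxymethyltransferase, at 9.73, and GLO1, glycolate oxidase, at 9.65. Phosphoglycolate phosphatase stood apart from its pathway: PGLP1B was at 1.3, 1.90 and 2.36 and PGLP1A at 0.92, 0.99 and 0.55. The coding sequences of this pair are 100% identical, and the sources used here do not say how reads that match both were counted, so the levels of these copies are uncertain. The chlorophyll pathway held 0.630% of the sum, with the cyclase subunit CRD1 highest at 9.79, 9.85 and 9.89. CHLH, a subunit of magnesium chelatase, stood at 8.88. Of the protochlorophyllide reductases, PORB stood at 8.77, 8.41 and 8.43 and PORC at 7.02, 7.01 and 7.18. PORA, known for greening of dark-grown seedlings, stood at 1.32, 1.58 and 1.06.

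Carbon handling beyond the cycle was led by the triose phosphate translocator TPT, which exports fixed carbon from the chloroplast, at 9.38, 9.53 and 9.39. The plastid carbonic anhydrases BCA1 and BCA2 stood at 9.15, 9.37 and 9.61 and at 8.37, 8.62 and 8.62. All 21 genes of starch and sucrose metabolism passed the level of 1, with mean levels between 4.38 and 9.43. GWD1, the glucan water dikinase that opens starch breakdown, stood at 7.57, 6.85 and 6.97. PWD, which acts after it and is listed as GWD3, stood at 5.67, 4.61 and 4.66. ISA3 (5.64, 5.05 and 4.83) and DPE1 (5.48, 4.71 and 4.74), which debranch starch and process its breakdown products, were likewise highest in library 1. Of the 21 genes, 11 were highest in library 1 and 6 were lowest there, among them the beta-amylase BAM1 at 5.74, 6.20 and 5.94. Over all genes, 5752 of 16646 were highest in library 1 and 5781 were lowest there. BAM3, the main beta-amylase of leaf starch at night, stood at 7.47, 7.23 and 7.43.

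Genes outside photosynthesis with varied roles also stood among the 100 highest. CAT3 stood at 10.76, 10.61 and 10.56, and CAT2, the peroxisomal catalase of photorespiration, at 8.46, 9.08 and 9.01. Metallothioneins, small cysteine-rich metal-binding proteins, held 0.520% of the sum, with MT3 at 10.63, 10.48 and 10.65 and MT2B at 10.31, 10.14 and 10.14. MT4A and MT4B, known as seed forms, were listed at 0. THI1, which makes the thiazole of thiamine, stood at 10.44, UBQ10, a polyubiquitin, at 10.40 and the germin-like protein GLP1 at 9.77, 10.12 and 10.12. AT2G45180, described in the table as a lipid transfer protein relative, ranked 41 and AT1G67865, which the table describes as unknown, ranked 45. Of the superoxide dismutases, the iron form FSD1 led at 8.97 on average, against 6.14 for the cytosolic copper-zinc form CSD1. APX2, an ascorbate peroxidase known for its response to excess light and heat, was listed at 0, whereas APX1 stood at 7.58.

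Genes of protein synthesis were numerous and moderate. The 233 genes described as proteins of the cytosolic ribosome held 2.53% ± 0.175 (SD, n = 3) of the sum, with 211 at the level of 1 or above and none among the 100 highest. RPL19A was the highest at 8.09, 8.01 and 8.15. Their share in the libraries was not even, since 169 of the 211 were lowest in library 2, where over all genes 5268 of 16646 were. The 44 nuclear genes described as 50S or 30S ribosomal proteins had a higher median level, 7.32 against 5.96. Their highest members are mostly described as chloroplast forms, and organelle ribosomal proteins described in other words are not counted. Of the 42 at the level of 1 or above, 31 were lowest in library 2. The 38 aquaporins, channels for water and small solutes, were led by TIP1-2 (9.24, 9.58 and 9.08) and PIP1-2 (9.08, 9.31 and 9.15), and 18 of the 21 at the level of 1 or above were highest in library 2, where over all genes 5502 of 16646 were.

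Chemical defence was well represented. TGG1, a myrosinase, stood at 8.14, 7.73 and 7.97, and ESM1, which modifies what myrosinase yields, at 8.72, 8.83 and 8.53. The aliphatic branch of glucosinolate synthesis was led by CYP83A1 (8.06, 8.35 and 8.46) and MAM1 (8.08, 8.30 and 8.47), with its regulator MYB28 at 6.05, 5.92 and 6.02. The indole branch enzyme CYP83B1 stood at 8.15, 7.90 and 8.17. LOX2, a chloroplast lipoxygenase of jasmonate synthesis, stood at 8.70, 9.04 and 8.84, while the jasmonate-responsive storage protein VSP2 stood at 2.23, 4.06 and 3.56.

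Senescence genes gave a mixed picture. SAG12, a cysteine protease used as the marker of advanced leaf senescence, was listed at 0 in all 3 libraries. Regulators of senescence were nevertheless present: ORE1 stood at 5.83, 5.48 and 5.22, NAP at 6.17, 6.31 and 5.92 and ORS1 at 5.64, 5.55 and 5.40. The chlorophyll breakdown enzymes PPH and PAO stood at 6.83, 7.06 and 6.67 and at 6.42, 6.67 and 6.46. SEN1, a gene induced by darkness and ageing, stood at 7.57, 7.46 and 6.91. The genes disrupted in the mutant lines of the series were at different levels in wild type: ANAC017 stood at 5.99, 5.88 and 5.79, ANAC082 at 4.98, 5.0 and 5.07, and ANAC090 at 1.35, 1.52 and 1.75. The levels of these 3 genes did not overlap with each other.

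**Figure D2:**
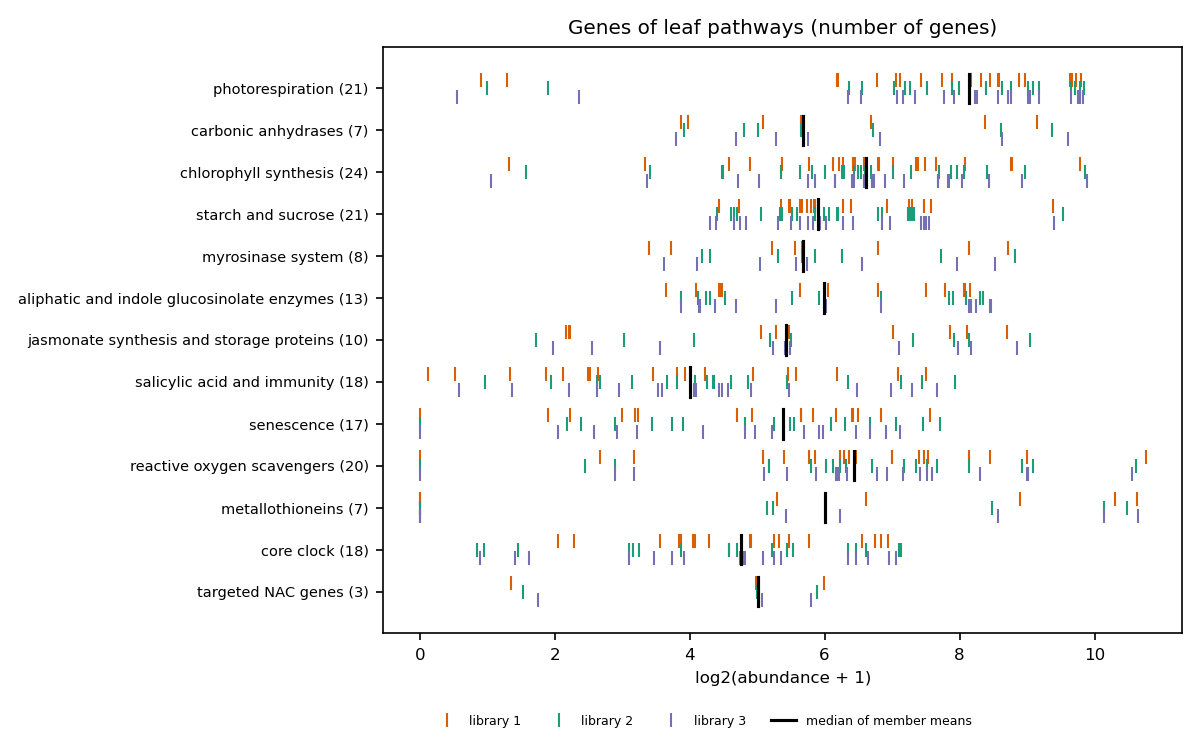
Log2 level of each gene of 13 pathway lists in each library (ticks), with the number of genes in parentheses and the median of the members' mean levels as a black bar. The median is 8.14 for photorespiration, 5.39 for senescence genes and 4.77 for the core clock.

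The families of transcription factors differed in how many members reached the level of 1. Among 71 WRKY genes 45 did (63.4%), among 57 bZIP genes 33 (57.9%), among 145 bHLH genes 76 (52.4%) and among 138 ERF and DREB genes 68 (49.3%). The shares were lower for NAC (45 of 108), MYB (44 of 127) and MADS-box genes (23 of 119). Over all genes the share was 50.1%. Over protein-coding genes it was 60.6%, which only the WRKY family exceeded among these families. RAP2-3, an ERF factor of group VII, which is linked to low oxygen, was the highest of these at 9.35, 8.33 and 8.85. The highest NAC gene was ANAC083 at 7.30, 7.38 and 7.41, and NAP and ANAC017 came next. WRKY70, which acts between salicylic acid and jasmonate signalling, led its family at 6.19, 6.35 and 6.49. HBI1, a growth-promoting bHLH factor, stood at 7.31, 7.40 and 7.41, MYB59 at 7.37, 7.15 and 7.11 and BZIP63, a factor of energy signalling, at 5.62, 5.76 and 5.93. The bZIP genes were taken by RefSeq's words. Their highest member is AT3G60320, at 5.88, 6.12 and 5.91, which the table describes as a protein of unknown function, so the bZIP count may include other proteins. Among MADS-box genes, the flowering regulators SOC1 and SVP led at 7.18, 6.87 and 6.92 and at 6.73, 6.73 and 6.60, and 63 of the 119 were listed at 0.

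The leaf label was checked against markers of cell types and organs. The 6 mesophyll markers lay between 9.38 and 11.29 in mean level. All 6 are photosynthesis genes already described above and among the 100 highest genes, so they give no separate check of the label. Guard cells were represented by all 9 of their markers at the level of 1 or above, with FAMA at 3.36, 3.18 and 3.19 and KAT1 at 3.66, 3.64 and 3.67, and companion cells by SUC2, the sucrose transporter that loads phloem, at 7.82, 7.70 and 7.47. TGG1 served as a marker of guard cells but is also made in myrosin cells. Of the 8 epidermal markers 7 passed, with ATML1 at 4.87, 4.91 and 4.86, and PDF1 was listed at 0. Trichome markers were low, with GL1 listed at 0 and TRY highest at 1.84, 2.52 and 2.36. Xylem and cambium markers stood between 0.22 and 2.95.

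Markers of other organs and of dividing tissue had mean levels under 1, with 3 exceptions. All 8 seed genes were listed at 0, as were the meristem genes STM, WUS and CLV3. None of the 6 genes of cell division reached a mean level of 1, and their summed share was 0.000545% to 0.000580%. Of 10 root genes, PLT1, PLT2, WOX5, COBL9, RHD6 and IRT1 were listed at 0. SCR (3.97, 3.98 and 4.16) and SHR (2.47, 2.88 and 2.46) passed, and both are also known to act in leaves. Of 10 genes of flower and pollen, TUA1, an alpha-tubulin first described from pollen, passed at 5.42, 5.77 and 5.51, and the other 9 were at 1.11 or lower in every library.

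**Figure D3:**
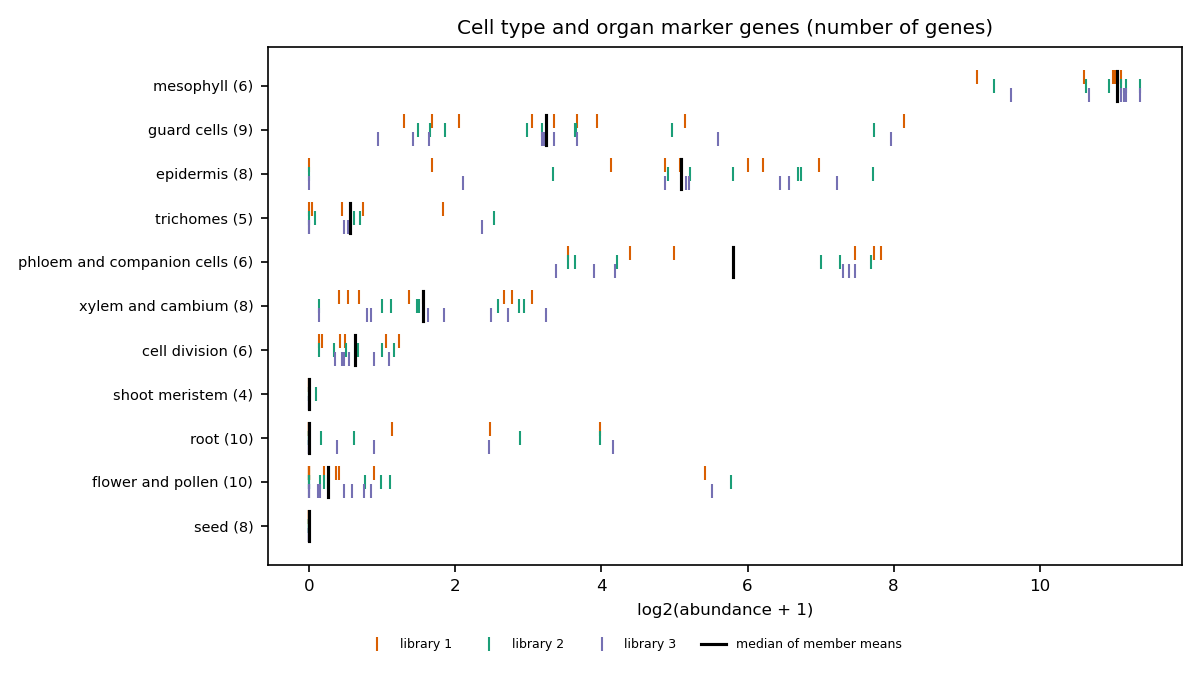
Log2 level of each marker gene in each library (ticks), by cell type or organ, with the number of genes in parentheses and the median of the members' mean levels as a black bar. Mesophyll markers lie above 9, and all 8 seed genes lie at 0.

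The 3 libraries agreed closely for most genes. Over the 16646 genes at the level of 1 or above the median SD was 0.136, and 13967 of them (83.9%) had a range between libraries under 0.5. Across these genes, which are not independent, Pearson's r was 0.983 for libraries 1 and 2, 0.983 for libraries 1 and 3 and 0.986 for libraries 2 and 3. The median SD was 0.198 at levels from 1 to 2 and 0.116 at levels from 4 to 6. A range of at least 1 log2 unit was found in 357 genes, which is 2.14% of the 16646. This count depends on the settings: it was 186 at an abundance threshold of 5 and 775 with a pseudocount of 0.1. Library 1 was the one farther from the middle value in 165 of the 357 (85 high and 80 low), library 2 in 92 (37 high and 55 low) and library 3 in 100 (77 high and 23 low). Without library 1, 119 genes had such a range, against 193 without library 2 and 190 without library 3.

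The 20 genes with the largest range, among the 12799 with a mean abundance of at least 5, included members of several known groups. ORG2, also called BHLH38, a regulator of iron uptake, had the largest range, 2.74, at 1.69, 2.52 and 4.43. PDF1.2C and PDF1.2A, plant defensins, were highest in library 3, at 4.48, 3.77 and 6.38 and at 6.24, 5.35 and 7.27. AZI1, a lipid transfer protein of systemic immunity, was lowest in library 2, at 4.40, 1.87 and 3.27. The clock gene PRR5, listed as APRR5, was highest in library 1 at 5.33, 3.09 and 3.73, and so was GRP7, an RNA-binding protein that cycles with the clock and is listed as RBG7, at 8.85, 7.0 and 7.02. LTI78, a gene of cold and drought response, stood at 7.60, 6.47 and 5.68. RBCL and PETD, both plastid-encoded, were highest in library 3, at 5.93, 6.74 and 7.80 and at 3.41, 4.12 and 5.27.

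Others of the 20 include GASA14, a gibberellin-regulated protein, highest in library 1 at 6.28, 4.58 and 4.32, and LTP3, a lipid transfer protein, highest in library 2 at 2.17, 4.17 and 3.08. CML41, a calmodulin-like protein, stood at 4.51, 3.50 and 5.54 and ATRL3, a RADIALIS-like gene, at 4.88, 2.88 and 4.74. The table describes AT5G26690 (1.79, 3.91 and 3.30) as a heavy metal transport protein, AT3G28270 (2.73, 4.80 and 4.71) as a UPF0496 protein, AT5G50450 (4.52, 2.60 and 2.97) as an F-box protein and AT5G62360 (5.94, 4.07 and 5.34) as an invertase inhibitor relative. The last 3, AT2G01021 (4.96, 2.71 and 4.97), AT2G14247 (2.73, 2.73 and 4.74) and AT1G47395 (2.48, 2.28 and 4.22), have no function in the table. Each library therefore stood apart in some of the 20.

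**Figure D4:**
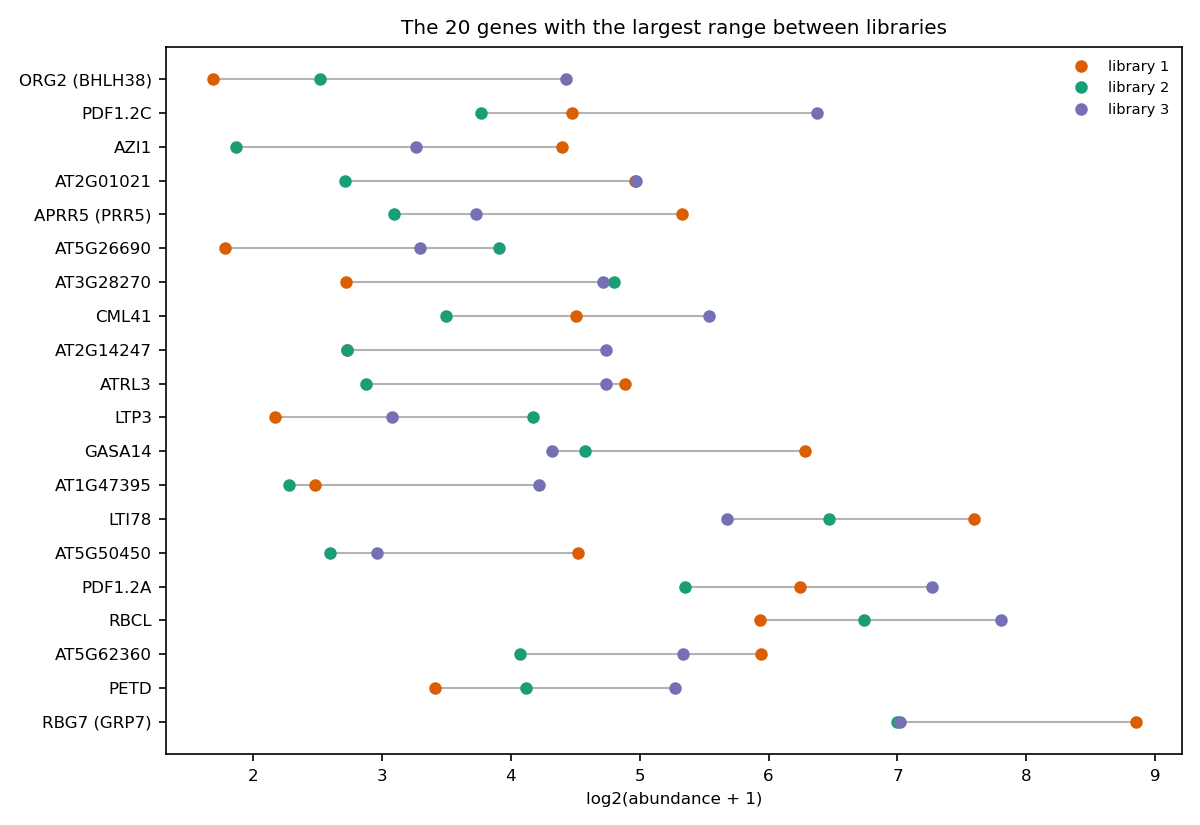
Log2 level in each of the 3 libraries (coloured points) for the 20 genes with the largest range between libraries among genes with a mean abundance of at least 5. The range runs from 2.74 in ORG2 to 1.85 in RBG7.

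Evening and dawn genes of the core clock differed between libraries in opposite directions. Genes that peak toward evening were higher in library 1: FKF1, a blue light receptor, stood at 3.56, 0.95 and 1.41, GI at 5.48, 4.70 and 4.79 and TOC1 at 4.05, 3.25 and 3.47. The evening complex genes ELF3 (3.84, 3.16 and 3.11), ELF4 (2.05, 0.85 and 0.90) and LUX (2.29, 1.46 and 1.61) lay the same way. The dawn genes CCA1 (5.77, 6.35 and 6.34), LHY (4.90, 5.44 and 5.35), RVE8 (4.29, 4.59 and 4.74) and RVE1 (4.08, 4.59 and 4.82) were lowest in library 1. Others moved less, with PRR9 at 4.91, 5.21 and 5.09, PRR7 at 6.83, 6.61 and 6.64, RVE4 at 6.94, 7.10 and 6.95 and RVE6 at 3.86, 3.88 and 3.92. LNK1 stood at 6.56, 6.46 and 6.47, LNK2 at 6.74, 7.14 and 7.06 and ZTL at 5.25, 5.53 and 5.25. Of the 18 clock genes 3 (16.7%) had a range of at least 1, namely PRR5, FKF1 and ELF4, against 2.14% of all genes. The clock list was chosen with earlier results of these data known, so this count describes the list and tests nothing. The hour of collection is not in the labels, and its part in these values was not tested.

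Cold and dehydration genes were also highest in library 1. Of 16 genes at the level of 1 or above, 13 were highest in library 1, 13 were lowest in library 3 and 7 (43.8%) had a range of at least 1. Over all genes, 5752 of 16646 were highest in library 1, 5597 were lowest in library 3 and 2.14% had such a range. Their summed share was 0.434%, 0.292% and 0.225% in libraries 1, 2 and 3. COR15B stood at 8.05, 7.07 and 6.68, KIN2 at 9.18, 8.55 and 8.28 and COR47, a dehydrin, at 8.79, 8.14 and 7.89. The regulators CBF1 (3.70, 2.76 and 2.21), CBF2 (4.2, 3.82 and 3.64) and CBF3 (4.58, 4.15 and 3.78) lay the same way. GOLS2 and RAB18, linked to drought and abscisic acid, were highest in library 2 instead, at 5.62, 6.33 and 5.17 and at 4.77, 5.31 and 4.35. The list of cold and dehydration genes was chosen with earlier results of these data known. Its member LTI78 is also among the genes of largest range named above.

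Promoters are printed for 4 genes that were highest in library 1 and that hold motifs known from these groups. Of these genes, GRP7 is not on the list of core clock genes. Each line holds the 250 bases before the RefSeq gene start on TAIR10.1, 5′ to 3′ on the strand of the gene. They are chr5:21240467-21240716 (plus strand) for LTI78, chr2:17712331-17712580 (minus strand) for COR15A, chr1:25508389-25508638 (plus strand) for FKF1 and chr2:9266558-9266807 (minus strand) for GRP7. Capitals mark, on either strand, CCGAC, the core bound by CBF proteins, in the first pair and AAAATATCT, the evening element, in the second.
LTI78: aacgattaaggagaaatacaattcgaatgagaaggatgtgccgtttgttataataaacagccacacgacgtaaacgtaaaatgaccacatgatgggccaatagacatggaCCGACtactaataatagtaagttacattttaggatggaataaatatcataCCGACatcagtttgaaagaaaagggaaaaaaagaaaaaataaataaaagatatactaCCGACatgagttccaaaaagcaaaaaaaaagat
COR15A: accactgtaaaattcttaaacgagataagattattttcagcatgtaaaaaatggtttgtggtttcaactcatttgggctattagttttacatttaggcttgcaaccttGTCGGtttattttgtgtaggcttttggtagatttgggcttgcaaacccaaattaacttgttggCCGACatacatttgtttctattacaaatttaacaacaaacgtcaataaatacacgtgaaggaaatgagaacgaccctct
FKF1: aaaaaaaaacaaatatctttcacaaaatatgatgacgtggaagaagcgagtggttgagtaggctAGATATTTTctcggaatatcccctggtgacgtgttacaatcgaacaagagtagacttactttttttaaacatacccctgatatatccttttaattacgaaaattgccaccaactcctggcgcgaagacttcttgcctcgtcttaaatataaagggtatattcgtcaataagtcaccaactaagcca
GRP7: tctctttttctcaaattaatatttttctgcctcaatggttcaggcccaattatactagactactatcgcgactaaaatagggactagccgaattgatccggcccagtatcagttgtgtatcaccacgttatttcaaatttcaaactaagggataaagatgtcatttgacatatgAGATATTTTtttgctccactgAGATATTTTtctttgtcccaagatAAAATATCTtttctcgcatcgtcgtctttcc
CCGAC occurred 3 times before LTI78 and 2 times before COR15A. It was found in 6 of 17 windows of the cold and dehydration genes, against 3285 of 27443 windows of protein-coding genes (12%). The evening element occurred 3 times before GRP7 and once before FKF1, in 4 of 18 windows of clock genes and in 2.36% of all windows. In the 81 nuclear photosynthesis genes, the G-box CACGTG was found in 16 windows (19.8%) and the I-box core GATAAG in 18 (22.2%), against 6.49% and 12.3% of all windows. The G-box was also found in 5 of 17 windows of cold and dehydration genes (29.4%) and in 6 of 18 of clock genes (33.3%). CCGAC was found in 7.41% of photosynthesis windows and 11.1% of clock windows, under the 12% of all windows. A further motif, the CCA1-binding site AAAAATCT, was found in 2 of 18 clock windows and 0 of 17 cold and dehydration windows, against 6.69% of all windows. These counts describe letters in the windows and say nothing of binding.

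Genes of salicylic acid signalling were lowest in library 1. Of 17 at the level of 1 or above, 15 were lowest there and 5 (29.4%) had a range of at least 1. Over all genes, 5781 of 16646 were lowest in library 1 and 2.14% had such a range. The salicylic acid list was chosen with earlier results of these data known, so its counts describe the list and test nothing. PR1, the defence protein used as a marker of this hormone, stood at 5.57, 7.13 and 6.98, while PR2 (7.51, 7.93 and 7.66) and PR5 (7.08, 7.45 and 7.30) differed less. The synthesis enzyme ICS1 stood at 3.81, 4.61 and 4.57 and PBS3 at 2.52, 3.66 and 3.59. ALD1, which opens the synthesis of pipecolic acid, stood at 0.52, 3.15 and 2.21. The receptor NPR1 (4.94, 4.86 and 4.90) and PAD4 (5.46, 5.44 and 5.47) were nearly level across the libraries.

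Genes of iron deficiency, PDF1 defensins and most plastid-encoded genes were highest in library 3. All 9 iron deficiency genes were highest in library 3, and 4 had a range of at least 1, namely ORG2 and its relatives BHLH39 (0.70, 1.60 and 3.38), BHLH100 (1.44, 2.00 and 3.58) and BHLH101 (1.47, 2.12 and 3.29). The transporter OPT3 stood at 6.38, 6.43 and 6.80, and FER1, the main leaf ferritin, which stores iron, at 6.52, 6.68 and 6.09. Of the 11 defensins, thionins and AZI1 relatives at the level of 1 or above, 9 were highest in library 3, 10 were lowest in library 2 and 9 had a range of at least 1. Over all genes, 5392 of 16646 were highest in library 3, 5268 were lowest in library 2 and 2.14% had such a range. The iron deficiency and defensin lists were chosen with earlier results of these data known. ORG2, PDF1.2A, PDF1.2C and AZI1 are also among the genes of largest range named above. The counts therefore describe these lists and test nothing. The wider family described as defensin or defensin-like was divided, with 6 of 14 genes highest in library 1 and 7 in library 3. PDF2.3 stood at 6.15, 5.44 and 5.74 and AT3G05730 at 5.86, 5.27 and 5.41, both highest in library 1. The coding sequences of PDF1.2A, PDF1.2B and PDF1.2C are 93.4% to 94.2% identical, so how reads were divided between them is uncertain.

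Of the 133 plastid-encoded genes in the table, 60 reached the level of 1, and 56 of the 60 were highest in library 3, where over all genes 5392 of 16646 were. A range of at least 1 was found in 41 of them (68.3%), against 2.14% of the 16646 genes. Their summed share was small, 0.169% ± 0.0831. PSBA, which encodes the D1 protein of photosystem II, was the highest at 7.80, 8.33 and 9.01. RBCL, the large subunit of Rubisco, stood well below its nuclear partner RBCS1A in every library. Plastid RNA largely lacks poly(A) tails, and the libraries were made from poly(A) RNA, so these levels do not stand for the amounts in the leaf. Of 20 mitochondrion-encoded genes at the level of 1 or above, 11 were highest in library 3, and 1 (5%) had a range of at least 1.

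Markers of the epidermis were highest in library 2. All 7 epidermal markers at the level of 1 or above were highest in library 2, where over all genes 5502 of 16646 were, and their summed share with PDF1, which is listed at 0, was 0.0550%, 0.0882% and 0.0694%. KCS1 and CER1, enzymes of cuticular wax, stood at 4.13, 5.80 and 5.19 and at 1.68, 3.34 and 2.1, and LTP1 at 6.98, 7.72 and 7.23. The factors ATML1 and PDF2, which define the epidermis, differed little, with PDF2 at 5.08, 5.21 and 5.16. The share of mesophyll markers was 1.72%, 1.84% and 1.92%, and that of phloem markers 0.109%, 0.0847% and 0.0872%. The marker lists were chosen with earlier results of these data known, so their counts describe the lists and test nothing. Whether the makeup of the tissue differed between the libraries was not tested.

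**Figure D5:**
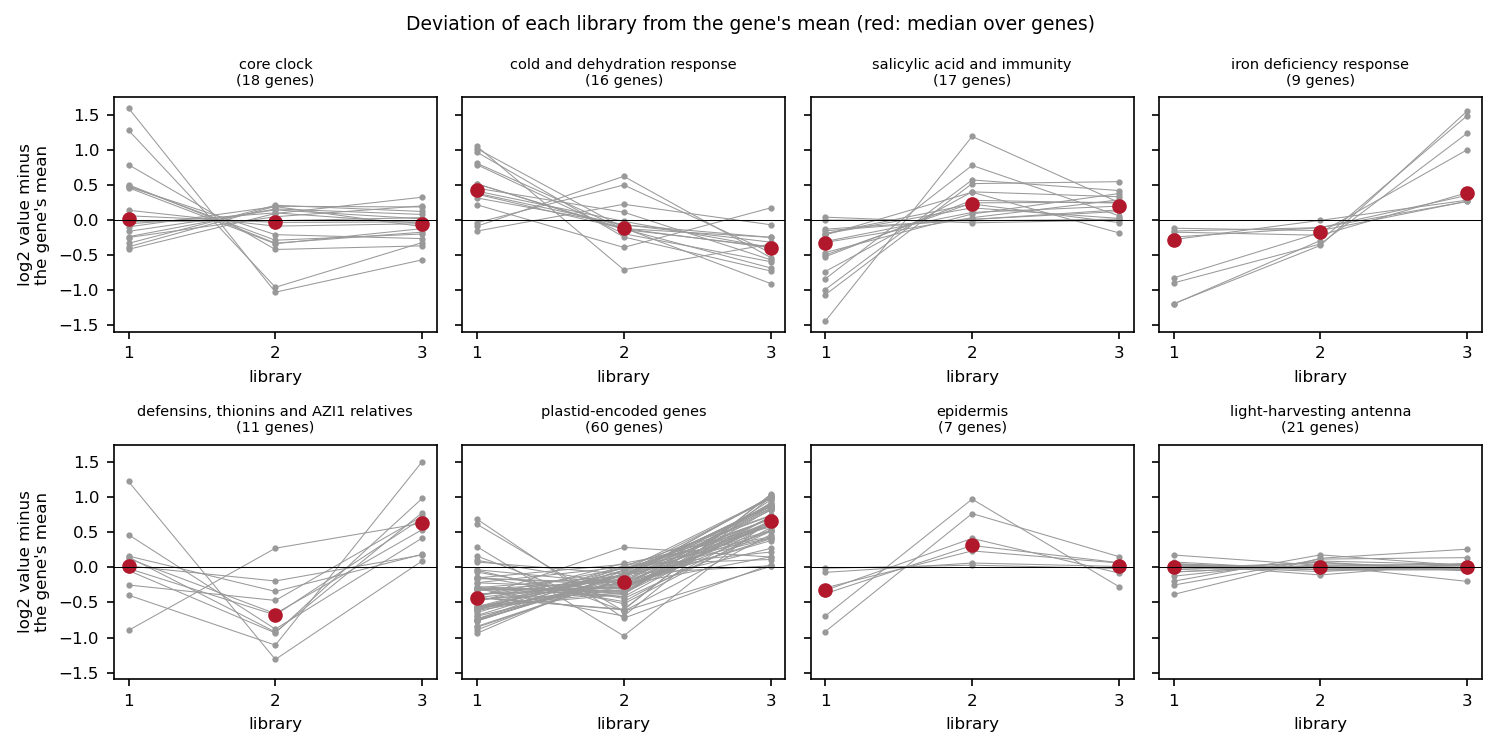
Difference of each library from the gene's mean log2 level, for genes at the level of 1 or above in 8 groups (grey points, joined for each gene) with the median over genes in red. Iron deficiency and plastid-encoded genes lie highest in library 3, at medians of 0.39 and 0.65, and cold and dehydration genes in library 1, at 0.43, while antenna genes lie near 0.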

How the data were processed

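Poly(A) RNA of 3 wild type leaf libraries was sequenced on an Illumina HiSeq instrument, per the labels' protocols. Cufflinks, TopHat, CASAVA 1.8.2 and TAIR10 are named, without their roles, per the submitters' processing notes. The deposited table holds log2 values, treated as log2(abundance + 1) from their range. Sorted values of all 12 libraries differ by at most 0.0818 at the same rank, so the libraries were quantile normalized before deposit, and the scaling before that step is stated in none of the sources used here. Such values hide any change in total RNA, and with no counts kept the depth is unknown.

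Groups come from the sample titles. Rows without an identifier, 529 of them with 0.0389% of the summed abundance, were left out. Genes were ranked by mean log2 value, and shares are of summed 2 to the power of the value minus 1. There is 1 group, so there is no test and no p-value. Families were taken from words in the table's and RefSeq's descriptions. Gene coordinates are the table's, with starts counted from 1. Promoters and coding sequences came from RefSeq TAIR10.1, which has the same start for 44.4% of 32454 shared genes, so window positions follow RefSeq. Named are the 25 highest genes, by name or within their groups, up to 4 of the highest members of each list or family, the 20 genes of largest range, all core clock genes, the targeted NAC genes and cell type markers, some by count. Other named members were chosen after their values were seen. The members and lists were chosen with earlier results of these data known. The calculation of spread was checked on simulated data. Python 3.11.15, pandas 2.3.3 and numpy 2.4.6 were used.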

Additional observations from a re-analysis of the deposited data

How the results depend on the processing

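No paired analysis was possible because the wild type is a single group and no test was made. Of 40 alternative values for 6 results, 31 stayed within the spread between libraries or, for counts and the median SD, within 1.5 times. Taking no pseudocount off gave shares of 8.72% for the 25 highest genes and 13.9% for nuclear photosynthesis genes, and a sum without organelle-encoded genes gave 9.20% for the 25 highest. With no filter on low values the median SD was 0.0754, where genes at 0 in every library enter. The count of genes with a range of at least 1 was 186 at an abundance threshold of 5 and 775 with a pseudocount of 0.1. With each library left out in turn it was 119 to 193, as a range over 2 libraries is never larger than over 3. Leaving out a library gave 16642 to 16654 genes at the level of 1 and 9.18% to 9.19% for the 25 highest. Quantile normalization gives the libraries nearly the same values at each rank, so these figures could hardly move. With a library left out, the shares were 14.6% to 14.7% for photosynthesis and 2.47% to 2.63% for cytosolic ribosomal proteins. The median SD was then 0.105 to 0.113. Quantile normalization limits what the spread of the highest genes can show, and the unknown depth limits what a listing at 0 can show.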

Other observations

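Noncoding and silent parts of the genome also have values. Of 396 genes annotated in RefSeq as long, antisense or other noncoding RNA, 208 (52.5%) reached the level of 1, close to the 50.1% over all genes. AT4G13495 was the highest of them at 8.44, 8.25 and 8.42, followed by GUT15 at 7.09, 6.75 and 6.59, and the sources used here do not say whether overlapping genes were counted by strand. Of 178 microRNA precursors, 10 reached the level of 1, led by MIR414 at 5.37, 5.30 and 5.40. MIR163, the only one of the 10 with a range of at least 1, stood at 2.92, 3.81 and 4.27. Among 3900 transposable element genes, 83 (2.13%) reached it and 3437 were listed at 0, and SADHU1-1 stood at 7.15, 7.0 and 6.74.

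Families differed in how many members were listed at 0 in all 3 libraries, against 34.4% of all genes. Of 282 genes described as defensin or defensin-like, 254 were listed at 0 and 14 reached the level of 1. Of 64 relatives of self-incompatibility proteins, 63 were listed at 0, and the exception, AT5G39493, was above 0 only in library 2, at 0.33. Of 766 F-box genes 429 were listed at 0. Of 230 cytochrome P450 genes 84 were listed at 0, slightly above the share of all genes. Among protein-coding genes alone, 6066 of 26689 were at 0. Fewer were at 0 among pentatricopeptide repeat genes, most of which act on RNA in organelles, with 15 of 452. The same held for the resistance protein class, with 16 of 155.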
